A study of Mus musculus with 6 samples.

Results

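The ligands, receptors and modulators of Wnt signalling were compared between wild type (WT) and Setd5+/- neural stem cells (NSCs) of the mouse. The members were taken by gene symbol alone, as the Wnt, Fzd, Sfrp, Dkk and Dvl genes that carry a number, together with Lrp5, Lrp6, Axin1, Axin2, Lef1, Tcf7, Tcf7l1, Tcf7l2, Ctnnb1, Apc, Rnf43, Znrf3, Lgr4, Lgr5 and Lgr6. This gave 56 of the 53110 rows of the expression table, of which 55 carried values because a second row named Fzd6 was empty. A mean of at least 10 normalized counts, which are reads divided by a size factor for each file, was reached by 36 of the members and by 16266 of all 52438 genes with values.

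The cells were cultured NSCs derived from the embryonic telencephalic cortex. They were grown attached to Matrigel with EGF and bFGF in 21% oxygen, and both genotypes received the same medium. The mutation of 1 copy of Setd5, which encodes a SET-domain protein of chromatin, had been made with CRISPR-Cas9, and all mutant columns carry the name of a single clone, A3, which the text of the study does not name. RNA was sequenced from both ends, and 3 files of reads are labelled WT and 3 Setd5+/-. The files held 9995980 to 10004948 counted reads in WT and 7143309 to 7146147 in Setd5+/- NSCs. Within a genotype they differed by less than sampling noise, with a chi-square per degree of freedom of 0.961 to 0.986 against 34.9 to 35 between genotypes, and their names show 1 index and 1 lane for each genotype. They were therefore counted as 1 library, so n is 1 per genotype and no difference below has a replicate check. The genotype also cannot be told apart from the clone, the library or the lane. Setd5 itself had 2498, 2749 and 2780 normalized counts in the WT files and 2151, 1990 and 2055 in the Setd5+/- files, and its change was -0.37 on the log2 scale (95% interval from counting error, -0.44 to -0.31).

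Wnt proteins are secreted, lipid-modified ligands. They bind Frizzled receptors, and in the canonical branch LRP5 or LRP6 joins them, Dishevelled is recruited, and the complex of Axin and APC no longer sends beta-catenin to degradation, so that beta-catenin can work with TCF/LEF factors on DNA. Other branches act without beta-catenin, on cell polarity and movement. In the developing cortex the pathway is known for the patterning of the dorsal telencephalon and for the balance between the division and the differentiation of progenitors.

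With 1 library per genotype, a gene was called when its log2 fold change, computed as log2(mean normalized count + 1) in Setd5+/- minus WT, was at least 1 in size, that is, 2-fold. The 95% intervals cover counting error only. Whether the files of the genotypes overlap, given below for single genes, also reflects counting error only, as the files are parts of 1 library. The share of all genes without such overlap was not computed. Files did not overlap even for Ctnnb1 and Wnt5a, whose log2 fold changes were 0.29 and 0.16. By this rule 8 of the 36 members (22.2%) were higher in Setd5+/- NSCs, against 10.3% of all genes, and 5 (13.9%) were lower, against 6.14%. The other 23 were within 2-fold. The median over the 36 members was 0.17, beside -0.02 over all genes, with 21 members above and 15 below 0. At an adjusted p under 0.05 from limma with Benjamini-Hochberg adjustment, which here compares the reads of 2 libraries and not the genotypes, 19 members were higher and 11 lower, while 30.3% of all genes were higher and 30.9% lower. The plot of the change of each gene by role shows that 6 of the 8 higher members were Frizzled receptors and that the lower ones were spread over 4 roles.

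**Figure D1:**
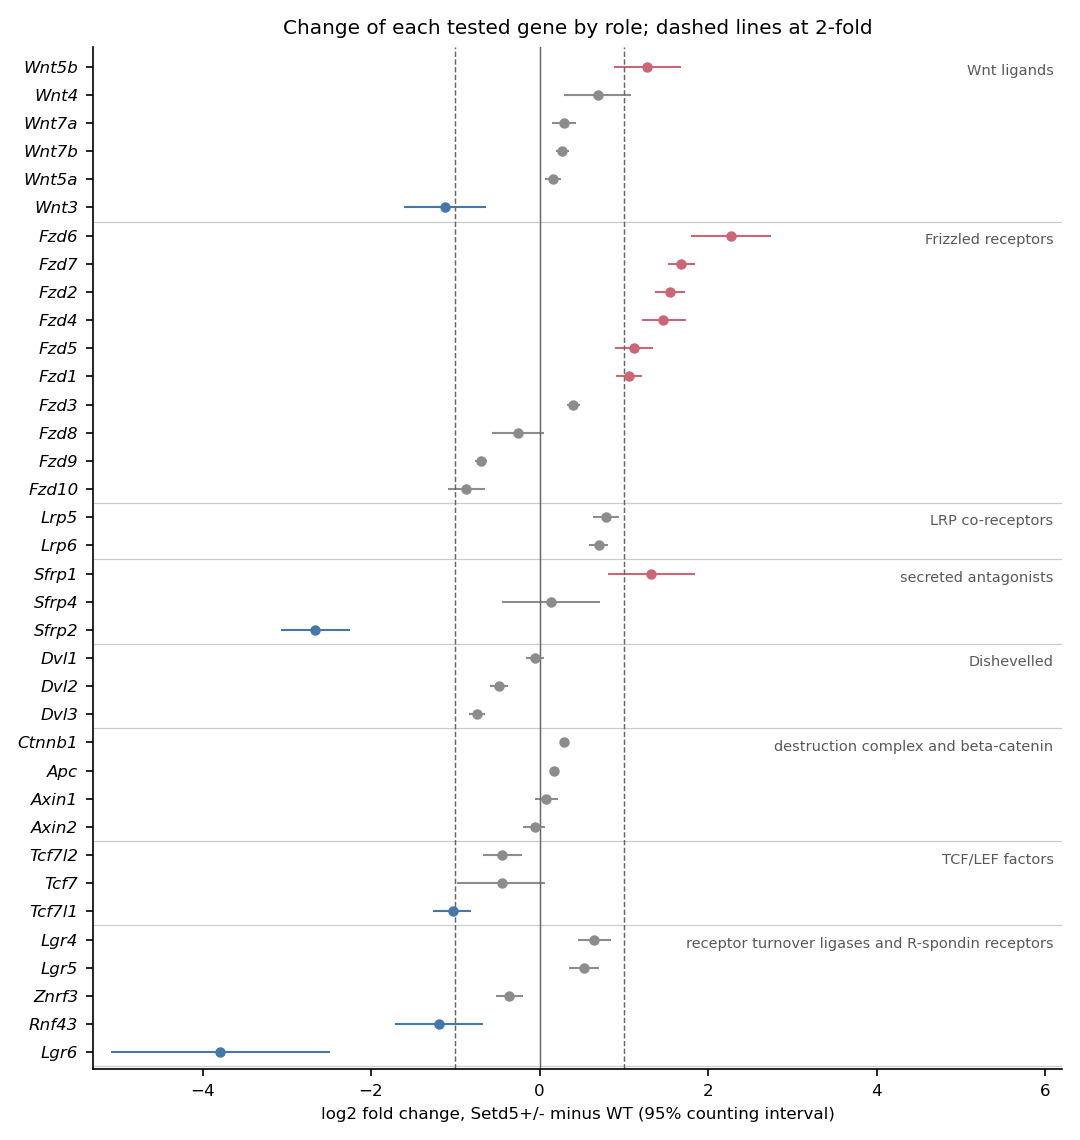
Each point is the log2 fold change (Setd5+/- minus WT) of 1 of the 36 tested genes, with its 95% counting interval as a bar, in blocks by role; red points are at least 2-fold higher, blue points at least 2-fold lower, and the dashed lines mark 2-fold. The Frizzled block runs from 2.27 for Fzd6 to -0.87 for Fzd10, and the value of Lgr6 rests on 1 read pair in Setd5+/- NSCs.

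Among the 10 Frizzled genes, which encode the membrane receptors for Wnt, 6 were higher in Setd5+/- NSCs and 0 were lower by the 2-fold rule, with a median log2 fold change of 1.09. Fzd6 rose most. Its normalized counts were 18.2, 29.8 and 19.1 in the WT files and 125, 92.9 and 118 in the Setd5+/- files, a 4.84-fold difference (log2 fold change 2.27, 1.80 to 2.75). All Setd5+/- values of Fzd6, a receptor known for planar polarity in skin and hair, lay above all WT values. The gene lies on chromosome 15 of GRCm38, the build also called mm10, from 39006034 to 39038188.

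Fzd1, Fzd2 and Fzd7 form a subfamily of closely related receptors, and all of them rose. Fzd7 had 199, 256 and 219 normalized counts in the WT files and 696, 732 and 739 in the Setd5+/- files, a log2 fold change of 1.68 (1.52 to 1.85). For Fzd2 the WT values were 192, 198 and 187 and the Setd5+/- values 615, 548 and 537, a change of 1.55 (1.37 to 1.73). Fzd1 had 314, 326 and 283 against 646, 649 and 633, a log2 fold change of 1.06 (0.91 to 1.21). In none of the 3 did the files of the genotypes overlap. Of the 50-base stretches of the Fzd1, Fzd2 and Fzd7 transcripts, 0 occurred in the transcript of any other gene. Fzd1 lies on chromosome 5 from 4753839 to 4758035, Fzd2 on chromosome 11 from 102604396 to 102608058 and Fzd7 on chromosome 1 from 59482424 to 59486955, and each of them is a single block of exon.

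Fzd4, the receptor of the ligand Norrin and of vessel growth in the retina, had 84.6, 97.6 and 94.4 normalized counts in the WT files and 232, 276 and 265 in the Setd5+/- files. Its log2 fold change was 1.47 (1.21 to 1.74). Fzd5, a receptor of eye development, had 141, 172 and 87.8 against 298, 286 and 293, a change of 1.12 (0.89 to 1.35). The WT files of Fzd5 were the more scattered, and without WT replicate 3 the value was 0.90, within 2-fold. Fzd5 also overlaps the antisense gene Gm38058, with which it shares 16.4% of its 50-base stretches and which went from 14.9 to 34.2 counts, and since the use of strand in counting is not given in the sources used here, their reads cannot be told apart.

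The remaining Frizzled genes were within 2-fold, and the lowest values were those of Fzd9 and Fzd10. These form a subfamily with Fzd4, which was higher (1.47). Fzd9, which lies in the interval deleted in Williams syndrome in humans and is expressed in neural precursors, had 2520, 2474 and 2525 normalized counts in the WT files and 1561, 1621 and 1469 in the Setd5+/- files, a log2 fold change of -0.69 (-0.77 to -0.62). Fzd10 had 333, 302 and 307 against 197, 162 and 155, a change of -0.87 (-1.09 to -0.65). For neither did the files of the genotypes overlap. Fzd3, a receptor of axon guidance, had a value of 0.40 (0.32 to 0.48). Fzd8, of the same subfamily as Fzd5, which was higher (1.12), had -0.26 (-0.56 to 0.05), and the files of Fzd8 overlapped.

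Per kilobase of exon, the scale on which genes can be set side by side, Fzd9 held the highest Frizzled level in both genotypes, at 1093 in WT against 676 in Setd5+/- NSCs. In WT the next levels were those of Fzd3 at 119, Fzd10 at 96.6 and Fzd1 at 73.3. In Setd5+/- NSCs, Fzd7 at 159, Fzd3 at 157, Fzd2 at 155 and Fzd1 at 153 stood close together behind Fzd9, while Fzd10 was at 52.7. The sum of the family per kb was 1542 in WT and 1474 in Setd5+/- NSCs, while the sum of its normalized counts without regard to length was 5434 and 6422, so the direction of the sum depends on the scale. Per kb, Fzd9 gave 70.9% of the WT sum and 45.9% of the Setd5+/- sum, whereas Fzd1, Fzd2 and Fzd7 together gave 11.4% and 31.7%. The aligner named in the methods, Bowtie2, does not align reads across introns, so levels of genes with several exons, such as Fzd3 and Fzd6, can be too low beside those of a single exon block.

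**Figure D2:**
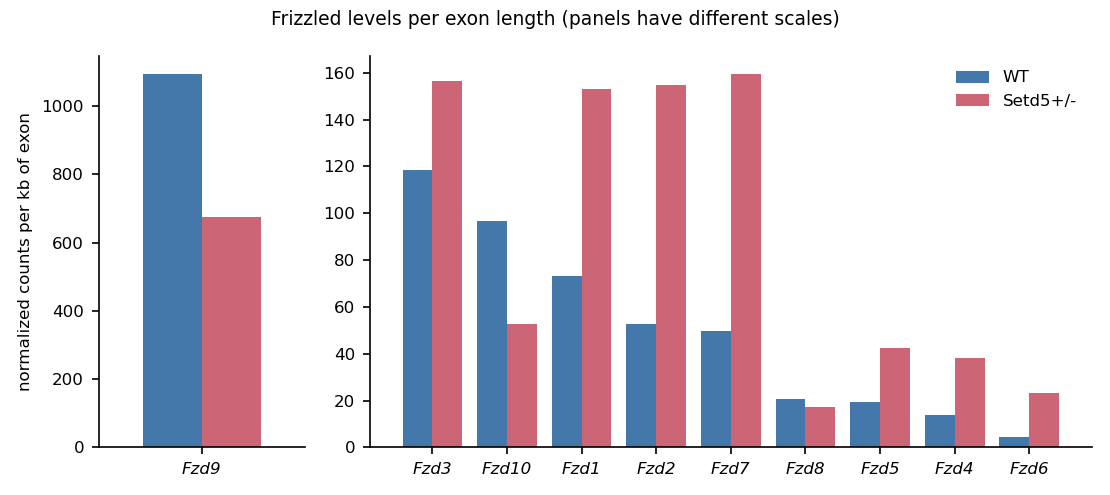
Bars give the level of each Frizzled gene in normalized counts per kb of exon, for the WT library (blue) and the Setd5+/- library (red), with Fzd9 on its own scale; there are no error bars because each genotype is 1 library. Fzd9 goes from 1093 to 676, and Fzd1, Fzd2 and Fzd7 reach 153 to 159 in Setd5+/- NSCs.

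The exon structure was set beside the calls. Of the 6 tested Frizzled genes with a single exon block 3 were higher, and of the 4 with more blocks 3 were higher. Over all protein-coding genes the shares called higher were 12.1% of 390 genes with a single block and 10.8% of 12100 genes with more.

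Windows around the start site from RefSeq (GRCm38.p6) were used for 37 member genes, among them Fzd1, Fzd4, Fzd5 and Fzd7, which are shown because they rose together. The 100 bases upstream of each start site are given 5′ to 3′ on the strand of the gene, with CpG dinucleotides in capitals.
Fzd1, chr5:4758217-4758316, minus strand: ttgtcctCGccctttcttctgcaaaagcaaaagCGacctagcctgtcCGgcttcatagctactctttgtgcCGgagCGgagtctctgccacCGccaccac
Fzd4, chr7:89404266-89404365, plus strand: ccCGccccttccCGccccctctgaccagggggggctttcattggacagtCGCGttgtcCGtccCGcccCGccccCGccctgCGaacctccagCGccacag
Fzd5, chr1:64737751-64737850, minus strand: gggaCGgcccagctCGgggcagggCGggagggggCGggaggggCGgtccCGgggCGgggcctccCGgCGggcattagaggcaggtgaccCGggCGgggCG
Fzd7, chr1:59482047-59482146, plus strand: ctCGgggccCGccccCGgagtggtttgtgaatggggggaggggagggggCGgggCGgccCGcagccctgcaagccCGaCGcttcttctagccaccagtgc

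These stretches hold 6, 10, 12 and 8 CpG in that order. Over the whole windows of 300 bases, 250 before and 50 after the start site, the observed over expected CpG ratio was 0.75 for Fzd1, 0.81 for Fzd4, 0.91 for Fzd5 and 0.73 for Fzd7. The median was 0.75 over the 47 member windows and 0.38 over all 32851 windows. Among Frizzled genes that were not higher, the ratio was 0.99 for Fzd10 and 1.18 for Fzd9, and no window was used for Fzd3 or Fzd8. Fzd2, Fzd6 and Sfrp1, which were called higher, also had no window here. Windows of Apc, Fzd8 and Wnt8a, which share a chromosome, were left out of the member set. The set of all windows was not restricted in the same way, so the member medians and shares have no matched background. The windows were also searched on both strands for CTTTGAT and CTTTGAA, forms of the site bound by TCF/LEF factors that cannot lie at the same place. A match was found in 3 of the 47 member windows (6.38%) and in 8.65% of all windows. Median GC content was 67.3% in member windows and 52.7% in all windows, and its part in these shares was not tested. Among the 10 called genes with a window only Wnt5b had a match, at 1 of its 3 start sites. That stretch, on the minus strand at chr6:119449421-119449487, is shown for its CTTTGAT in capitals.
Wnt5b: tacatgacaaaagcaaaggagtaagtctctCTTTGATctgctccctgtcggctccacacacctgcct

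Of the 19 Wnt ligand genes 6 were tested, and 1 was higher and 1 lower. Wnt5b, a ligand that acts mostly without beta-catenin, had 41.5, 48.0 and 33.1 normalized counts in the WT files and 105, 85.7 and 111 in the Setd5+/- files, a log2 fold change of 1.28 (0.88 to 1.68). Wnt3, a canonical ligand, had 53.9, 74.5 and 84.5 against 32.2, 19.1 and 45.3, a change of -1.12 (-1.61 to -0.63). Neither overlapped between genotypes, although Wnt3 came within 2-fold without WT replicate 3 (-0.97) and without Setd5+/- replicate 2 (-0.86). Wnt5b lies on chromosome 6 from 119432531 to 119544347 and Wnt3 on chromosome 11 from 103774150 to 103817957.

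Both of these ligands were minor ones. Per kb of exon, Wnt7b had the highest level, 317 in WT and 383 in Setd5+/- NSCs, followed by Wnt7a at 147 and 180 and by Wnt5a at 144 and 161. Wnt7a and Wnt7b are the ligands known for the growth of vessels into the brain. Together with Wnt5a, the main ligand of the branch without beta-catenin, they had log2 fold changes of 0.16 to 0.29. Of the summed ligand level per kb, Wnt7b gave 47.8% in WT and 48% in Setd5+/- NSCs. The summed level of all ligands was 664 in WT and 798 in Setd5+/- NSCs. Wnt4 had a log2 fold change of 0.69 (0.29 to 1.09). Wnt7b overlaps the antisense gene AU022754, which went from 28.7 to 56.0 counts.

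The secreted antagonists bind Wnt proteins or their receptors outside the cell, and the 2 called ones went in opposite directions. Sfrp2, a secreted Frizzled-related protein, had 253, 250 and 237 normalized counts in the WT files and 42.9, 33.3 and 38.1 in the Setd5+/- files, which is 6.33-fold lower (log2 fold change -2.66, -3.07 to -2.25). This was the largest fall among members with more than 3 read pairs in both libraries. Sfrp1, its relative, had 24.9, 21.5 and 23.2 against 59.6, 64.3 and 54.8, a log2 fold change of 1.32 (0.81 to 1.84). In WT Sfrp2 therefore stood well above Sfrp1, at 115 against 5.31 counts per kb, and in Setd5+/- NSCs the levels were 17.7 and 13.6. Sfrp2 lies on chromosome 3 from 83766321 to 83774316 and shares 12% of its 50-base stretches with the antisense gene Gm26771, which went from 43.1 to 3.18 counts. Sfrp1 lies on chromosome 8 from 23411502 to 23449632. Sfrp4 had a log2 fold change of 0.13 (-0.45 to 0.72) with overlapping files.

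**Figure D3:**
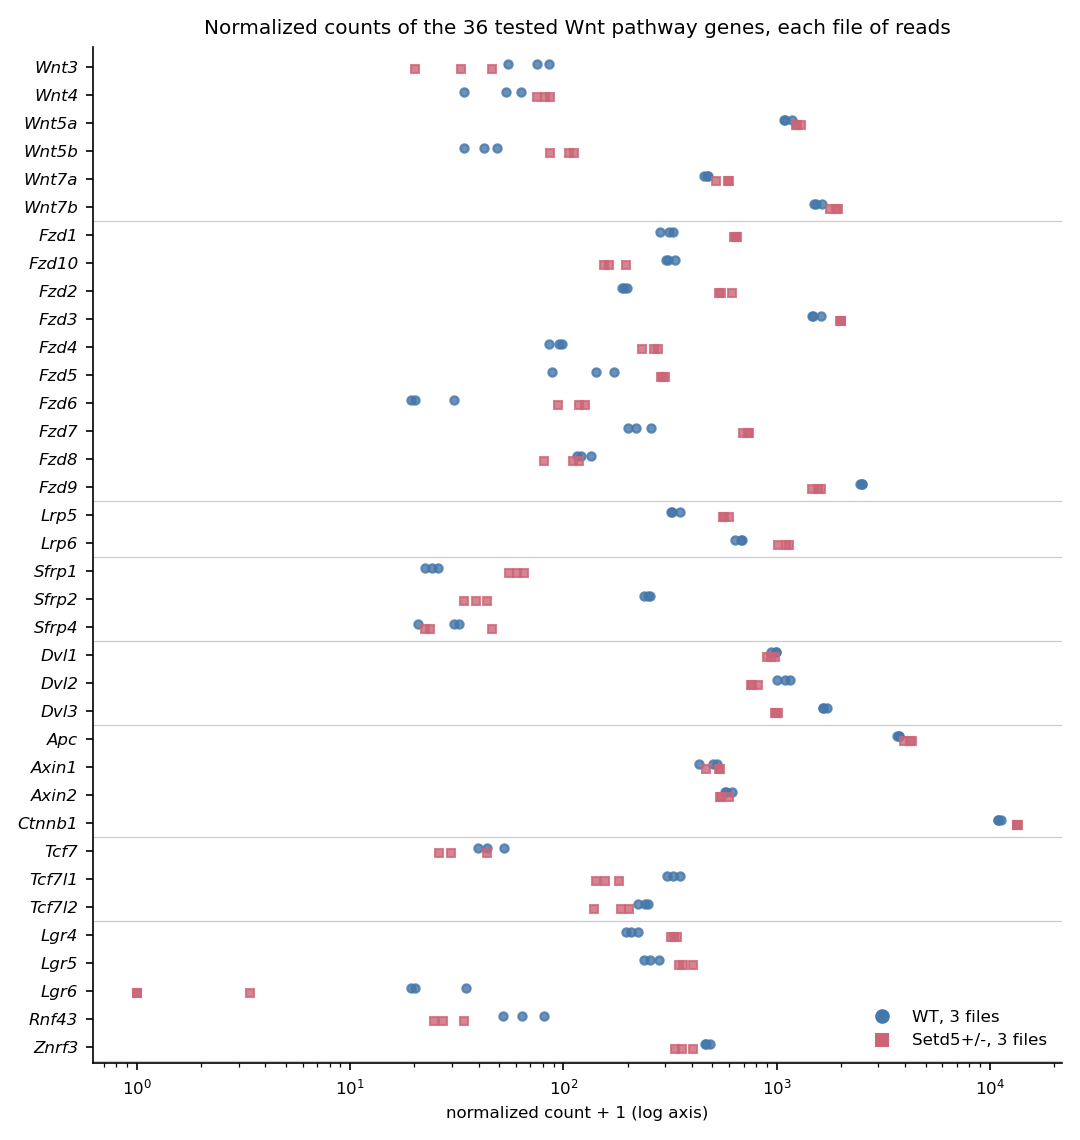
Normalized counts plus 1 (log axis) of the 36 tested genes in each of the 6 files of reads, with WT as blue circles and Setd5+/- as red squares; the 3 symbols of a genotype are parts of 1 library and show counting error. Fzd6, Fzd7, Fzd2 and Fzd4 lie clearly to the right in Setd5+/- NSCs, and Sfrp2 and Lgr6 to the left.

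No member of the steps from the co-receptor to beta-catenin passed the 2-fold rule. The co-receptor gene Lrp5 had 323, 352 and 320 normalized counts in the WT files and 596, 560 and 568 in the Setd5+/- files, a log2 fold change of 0.79 (0.64 to 0.94). For Lrp6 the log2 fold change was 0.70 (0.59 to 0.81), and for neither gene did the files overlap. The 3 Dishevelled genes, which encode the proteins that relay the signal from Frizzled, all had values below 0, from -0.06 (-0.16 to 0.05) for Dvl1 over -0.48 for Dvl2 to -0.74 (-0.84 to -0.65) for Dvl3. Dvl3 had 1644, 1723 and 1652 counts against 1012, 985 and 997. Dvl2 shares 13% of its 50-base stretches with other genes, mainly Acadvl, which had a log2 fold change of -0.83.

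Ctnnb1, which encodes beta-catenin, was the most abundant member, with 10899, 10914 and 11259 normalized counts in the WT files and 13444, 13563 and 13466 in the Setd5+/- files. Its log2 fold change was 0.29 (0.26 to 0.32), and it overlaps Ulk4, with a value of 0.17. Apc, a scaffold of the destruction complex, had 0.17 (0.12 to 0.22) and Axin1 had 0.08 (-0.06 to 0.22). Axin2 is a feedback inhibitor and the target gene most often read as a sign of canonical activity. It had 576, 573 and 616 counts in the WT files and 544, 595 and 550 in the Setd5+/- files, a log2 fold change of -0.06 (-0.20 to 0.07). The Axin2 files overlapped, the interval reaches down to -0.20, and the sign turned to 0.04 when the median of chromosome 11 was subtracted.

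The TCF/LEF genes, whose proteins bring beta-catenin to DNA, were below 0 in all 3 tested cases. Tcf7l1, which acts mainly as a repressor and is known for holding stem cells in their state, had 352, 324 and 306 normalized counts in the WT files and 142, 156 and 181 in the Setd5+/- files, a log2 fold change of -1.03 (-1.26 to -0.81). It stood at the border of the rule, since the value was -0.98 without WT replicate 1 and -0.96 without Setd5+/- replicate 1. Tcf7l1 lies on chromosome 6 from 72626378 to 72789254, and its antisense neighbour Gm15401 went from 32.9 to 9.53 counts. Tcf7l2 had -0.44 (-0.67 to -0.21) and Tcf7 had -0.45 (-0.98 to 0.07), the latter with overlapping files. Lef1, the fourth of the family and itself a target of the pathway, was under the filter on low values. Its counts were 8.29, 9.93 and 9.94 in the WT files and 0 in each Setd5+/- file, from 17 read pairs against 0. Taking 3 read pairs as the limit that a count of 0 allows, Lef1 was at least 3.94-fold lower in Setd5+/- NSCs.

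The last role holds the ligases that remove Frizzled from the cell surface, Rnf43 and Znrf3, and the R-spondin receptors Lgr4, Lgr5 and Lgr6, through which R-spondins hold these ligases back. Rnf43 had 63.0, 51.3 and 80.3 normalized counts in the WT files and 33.4, 26.2 and 23.8 in the Setd5+/- files, a log2 fold change of -1.19 (-1.71 to -0.67). Znrf3 was at -0.36 (-0.52 to -0.20), and the files overlapped for neither ligase. Rnf43 lies on chromosome 11 from 87662722 to 87735539.

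Lgr6 had 19.1, 18.2 and 34.0 counts in the WT files and 0, 0 and 2.38 in the Setd5+/- files. These were 43 read pairs against 1, which without a pseudocount makes Lgr6 29.9-fold lower with a counting interval of 5.09 to 1208. Its log2 fold change, with 1 added to the means, was -3.79 (-5.08 to -2.49). Without WT replicate 3 its mean fell under the filter of 10. Lgr6 lies on chromosome 1 from 134983301 to 135105276. Lgr4 and Lgr5, the latter a marker of stem cells in the gut, had log2 fold changes of 0.65 (0.46 to 0.85) and 0.53 (0.35 to 0.71). All Setd5+/- values of both lay above the WT values.

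The 19 members under the filter had at most 34 reads in a library. Besides Lef1, those with the most reads were Wnt2b, with 29 reads in WT and 24 in Setd5+/- NSCs, and Wnt9a, with 16 and 30. Dkk3, a divergent member of the Dickkopf family, had 28 reads in WT and 0 in Setd5+/- NSCs, at least 3.25-fold lower, and is named after its values were seen. Of the others, 9 had 0 reads in both libraries, namely Wnt1, Wnt3a, Wnt8a, Wnt10a, Wnt10b, Wnt11, Dkk1, Dkk2 and Dkk4, and a count of 0 allows a level of up to 1.66 (WT) or 2.38 (Setd5+/-) normalized counts. The Dickkopf inhibitors of LRP5 and LRP6 were thus not detected at this depth, and neither were Wnt1 and Wnt3a, the ligands best known for the dorsal midline of the brain.

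The 1044 tested genes of chromosome 1 had a median log2 fold change of 0.53, and 25.4% of them were called higher, whereas the medians of the other autosomes and of the X chromosome lay between -0.15 and 0.02. This bears on Fzd5, Fzd7 and Lgr6, the 3 tested members there. Relative to the median of the chromosome, Fzd7 had 1.15, Fzd5 had 0.59 and so was no longer past 2-fold, and Lgr6 had -4.32, against -3.79 before. On the other chromosomes 6 of 33 members were higher (18.2%) and 4 lower (12.1%), with a median of 0.16, beside 9.22% and 6.37% of the 15222 tested genes there. The other called Frizzled genes, Fzd1, Fzd2, Fzd4 and Fzd6, lie on 4 chromosomes.

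**Figure D4:**
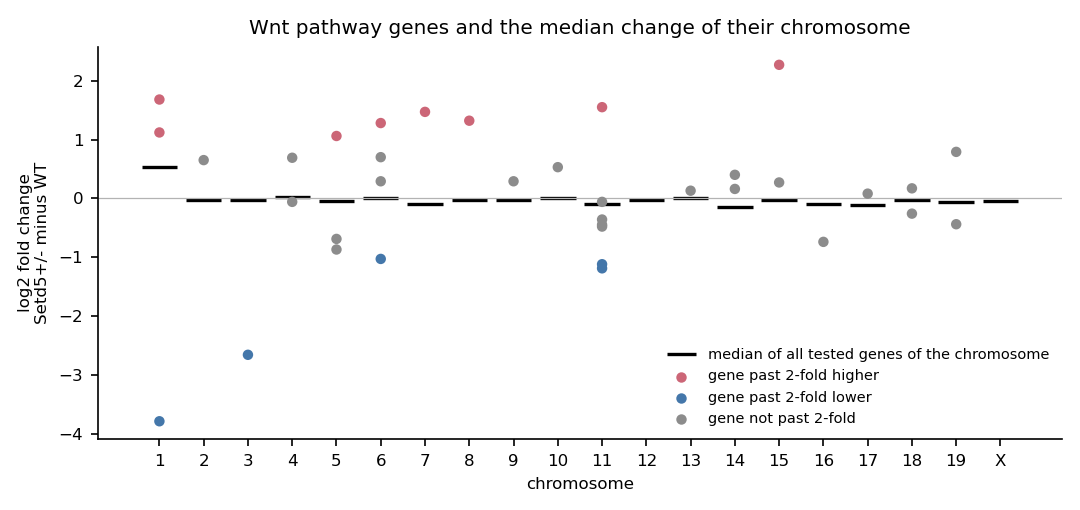
Log2 fold change (Setd5+/- minus WT) of the tested genes by chromosome, with red points at least 2-fold higher and blue points at least 2-fold lower, and the median of all tested genes of each chromosome as a black bar. The bar of chromosome 1 stands at 0.53 and the others between -0.15 and 0.02.

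The labelled cell type was checked against its markers. All 10 NSC markers had reads in both libraries, among them Sox2 at 3119 (WT) and 2732 (Setd5+/-) normalized counts and Nes at 2378 and 1951, although Fabp7 was lower (-1.65) and Notch1 higher (1.61). The summed level of 7 markers of the oligodendrocyte lineage was 41367 in WT and 23973 in Setd5+/- NSCs, with Sox10 at 298 and 1.59. For 7 neuronal markers the sums were 403 and 85.4, with Neurod6 at 0 in both, and 3 of the 4 tested ones were lower. The sums of 5 astrocyte markers were 807 and 1337, and they divided, with Gfap (17.1 and 263), Aqp4 (57.7 and 187) and S100b (339 and 737) higher, Aldh1l1 (380 and 147) lower, and Gjb6, under the filter, at 12.7 and 3.18. The mesenchymal sums of 392 and 634 came almost wholly from Prrx1 (382 and 627), and the microglial sums of 100.0 and 58.0 from Csf1r (98.0 and 53.6). The endothelial sums were 11.6 and 22.2. Those of the choroid plexus and cortical hem were 5.52 and 17.5, with Msx1, under the filter, at 1.66 and 15.9. Ttr, Lmx1a and Rspo3 were at 0 in both. The part of these marker differences in the Wnt pathway values was not tested, and fewer cells of a type and less RNA per cell cannot be told apart in such bulk samples.

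Other genes of the pathway were described with 5 lists, by their counts past 2-fold, which are to be read against 10.3% higher and 6.14% lower over all genes. Of 16 tested genes of Wnt secretion and extracellular modulation 6 were higher (37.5%) and 1 was lower, with a median of 0.86. Wif1, a secreted inhibitor that binds Wnt, rose most, from 21.0 to 287 normalized counts (3.71), and Sostdc1, another secreted antagonist, was lower, from 16.6 to 4.77 (-1.61). Kremen1, a receptor for Dickkopf proteins, was also higher, from 853 to 1967 counts, as were Draxin (1.68), Gpc4 (1.02), Serpinf1 (1.25) and Apcdd1 (2.48), several of which are known as inhibitors of Wnt signalling.

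Of 18 alternative receptors and planar polarity genes 4 were higher (22.2%) and 2 lower (11.1%), with a median of 0.69. Celsr1, a cadherin of planar polarity, had the largest rise, from 242 to 1092 (2.17), with its relatives Celsr2 at 1.08 and Celsr3 at -1.64. Daam2, a formin that binds Dishevelled, had the largest fall, from 44.7 to 5.96 (-2.72). Ror1, a receptor for Wnt5a, and Vangl1 were the other genes that were higher (1.58 and 1.04).

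Of 24 other genes of the destruction complex and its regulators 0 were higher and 2 were lower, Dact1 (-1.47), a protein that binds Dishevelled, and Amer2 (-1.08), which binds APC. The 21 partners of beta-catenin and co-repressors had 0 calls in either direction, with log2 fold changes of -0.78 to 0.86, and limma with Benjamini-Hochberg adjustment put 8 of them higher and 10 lower, in a test that put 30.3% of all genes higher and 30.9% lower. That list includes Tcf3 and Tcf4, which in the mouse name E proteins and not TCF/LEF factors. Of 22 genes known as targets of the canonical pathway in various tissues 5 were higher (22.7%) and 4 lower (18.2%), with a median of -0.04. They divided, as Jun (-2.90), Myc (-2.03), T (-2.36) and Gbx2 (-1.80) were lower and Apcdd1, Cd44 (1.89), Vegfa (1.69), En1 and En2 were higher. En1, a midbrain patterning factor on chromosome 1, rose from 1 read pair in WT to 78.5 in Setd5+/- NSCs, a ratio of 113 with a counting interval of 19.8 to 4544. Its log2 fold change, with 1 added to the means, was 5.35.

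**Figure D5:**
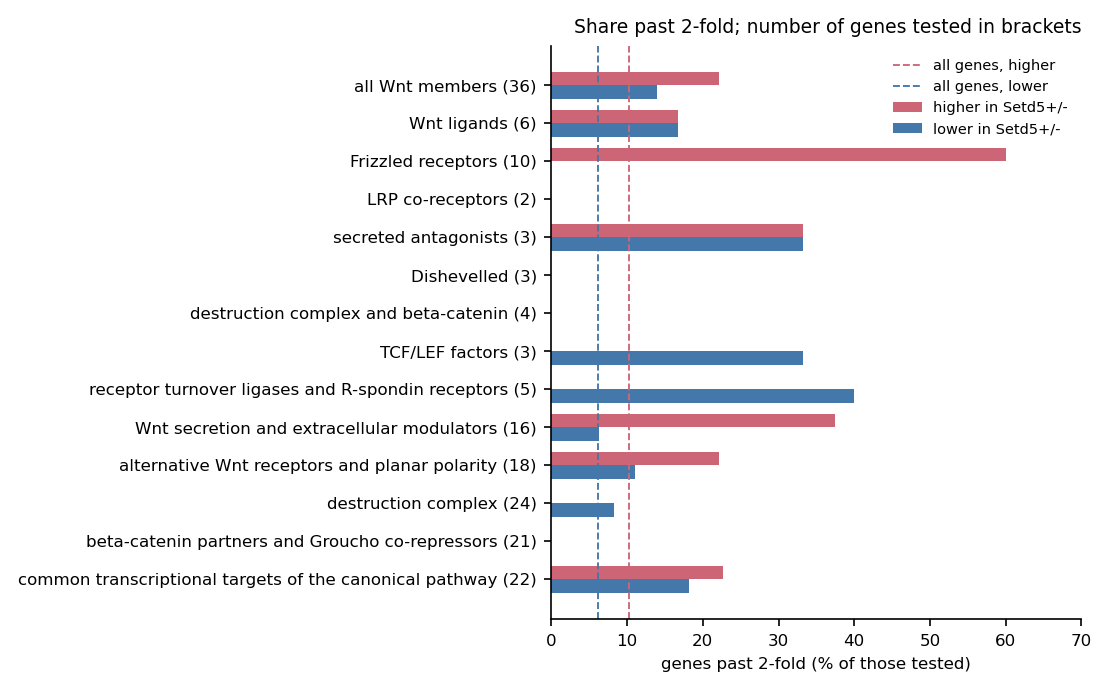
Bars give the percent of tested genes at least 2-fold higher (red) or lower (blue) in Setd5+/- NSCs for the 36 Wnt genes, their roles and the 5 further lists, with the number tested in brackets; dashed lines mark the shares over all genes, 10.3% and 6.14%. The Frizzled bar reaches 60% higher, from 6 of 10 genes.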

How the data were processed

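RNA-seq of WT and Setd5+/- NSCs in 21% oxygen was used. The authors trimmed reads with Trimmomatic, aligned them to mm10 with Bowtie2 and deposited counts normalized by DESeq2 size factors; other values of the deposited table, namely means, fold changes and p-values of the authors' own comparison, were not used, except the mean. The counting program, its use of strand and the annotation are not given in the sources used here. Many deposited values had lost their decimal point, which was placed where a value became a whole number of reads (within 0.02), with the deposited mean deciding in 1132 genes, Fzd2 and Sfrp2 among them. The restored mean equalled the deposited one in all 52438 genes, and the procedure was tested on simulated data. No column was left without a sample.

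Log2 fold changes used a pseudocount of 1, which understates changes of low genes, and a mean of at least 10. Intervals assume a variance of 1.94 times the mean, as both reads of a pair were counted. Since the 3 files of a genotype are parts of 1 library, a 2-fold rule was used, and limma 3.58.1 (R 4.3.3, trend, Benjamini-Hochberg over all 16266 genes) was run only as a comparison of the reads. Both were tested on simulated data. Gene positions, exon lengths and transcripts were those of GENCODE vM21 (GRCm38).

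The members and lists were chosen with earlier results of these data known. Within each role the largest rise and fall, all called members, Axin2, Lef1 and Ctnnb1 were to be named, and in each list the largest called rise and fall; other genes of the lists are named after their values were seen. Alternatives were other scalings, filters, pseudocounts and folds, centring on the chromosome median, leaving out genes restored with the mean, and leaving out each file.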

Additional observations from a re-analysis of the deposited data

How the results depend on the processing

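The counts of higher and lower members were recomputed under 16 alternatives. The count of higher members, 8 as reported, stayed between 7 and 12, and was 12 with a 1.5-fold call. The shares over all genes were not recomputed under these alternatives, so the counts of higher and lower members have no background there. The count of lower members, 5 as reported, was 3 with a mean of at least 50, where Lgr6 and Rnf43 drop out because fewer genes are tested, and 8 with a 1.5-fold call, and leaving out single files gave 3 to 5, with 3 without WT replicate 3. The median of the tested members, 0.17 as reported, was 0.27 with a mean of at least 50, 0.24 relative to the chromosome median, 0.11 with no filter and 0.13 with scaling to total reads, and 0.14 to 0.23 with single files left out. Over all genes the median was -0.03 with a mean of at least 50, 0.00 relative to the chromosome median and -0.03 with no filter. With scaling to total reads it was -0.06, and with single files left out -0.02 to -0.01. Without the genes restored with the mean, Fzd2 and Sfrp2 leave the table, which gives 7 higher and 4 lower. With no filter, Dkk3, Lef1, Sfrp5 and Wnt9a were added to the calls. Of 29 named genes 28 kept their sign under all the alternatives in which they were tested, and Axin2 did not. Scaling to total reads or to the upper quartile changed no call of a member. With a pseudocount of 5, Lgr6 was at -2.31 and En1 at 3.60, against -3.79 and 5.35 as reported, as low counts depend on it. The fold of Lef1 was not recomputed, being a bound.

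The replicate numbers in the labels do not pair the samples, since deviations of same-numbered files correlated at -0.0071 to 0.0049. With the replicate block, limma put 30 members past the threshold, as many as without it, and this was 29 to 31 with single files left out. For the same reason these counts are no check of pairing or of replication.

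Depth limits the genes of few reads, such as Lgr6, Lef1 and Wnt3, and 19 members were under the filter. Each genotype is 1 library, so no value here measures how cultures of a genotype differ.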
